A study of Homo sapiens with 2 samples.

Results

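The core of the RAS, RAF and MEK pathway was read in cultured cells labelled as pancreatic cancer cells, after 48 hours with iMQT_020 or with vehicle. It is represented by 7 genes chosen by symbol from the 46427 gene rows of the deposited table: HRAS, NRAS, SOS1, NF1, BRAF, MAP2K1 and MAPK3. All 7 passed the count minimum (at least 50 reads in at least 1 library), as did 14805 genes in all. By the study's own description iMQT_020 blocks the glutamine transporter of mitochondria; the labels give neither its dose nor the number of cultures. The study asked how the transcriptome of these cells differs when that transporter is inhibited. Each condition was sequenced as 1 library of total RNA, 1 from cells given iMQT_020 and 1 from cells given vehicle. There are therefore no replicates, no difference below has a replicate check, and the effect of the drug cannot be told apart from anything else that differed between the 2 cultures or library preparations.

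The pathway carries signals from growth factor receptors to the nucleus. RAS proteins are small GTPases that are active when bound to GTP; exchange factors such as SOS1 load them with GTP, and GTPase-activating proteins such as NF1 return them to the inactive state. Active RAS recruits RAF kinases, which phosphorylate the MEK kinases, which in turn phosphorylate the ERK kinases. Most pancreatic ductal cancers carry an activating mutation of a RAS gene, so the pathway is a central one in this disease. Much of its control lies in GTP loading and phosphorylation, which messenger RNA levels do not measure.

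The label of the cells was checked first, because it bears on what the values describe. The cells are labelled MiaPaca2, a human pancreatic adenocarcinoma line known to lack CDKN2A, yet CDKN2A was at 208 TPM in the iMQT_020 library and 278 TPM in the vehicle library. CD44, known as abundant in that line, was at 0.0209 TPM with iMQT_020 and 0.0964 TPM with vehicle. The other genes read for the identity of the line were VIM, MTAP and CDKN2B. With iMQT_020 they were at 438, 26.2 and 13.5 TPM, and with vehicle at 403, 33.7 and 8.04 TPM, in that order. How these values bear on the identity of the line was not tested. Of 8 duct and epithelial markers, 4 passed the count minimum (KRT8, KRT18, MUC1 and SOX9), while KRT7 and KRT19 had 0 reads in both libraries, which allows up to 0.0506 CPM with iMQT_020 and 0.0448 CPM with vehicle. EPCAM had 0 reads with iMQT_020 and 4 with vehicle, and CDH1 had 6 and 7 in the same order. Of 9 markers of blood, endothelial, stromal, liver and pancreatic endocrine or acinar cells, COL1A1 alone passed the count minimum. The libraries held 59139157 reads (iMQT_020) and 67095283 reads (vehicle). They also differed outside the pathway: mitochondrial and ribosomal RNA genes took 5.40% of reads with iMQT_020 and 4.11% with vehicle, and the log2 ratio, iMQT_020 over vehicle, was -0.81 for SOX9, -0.61 for COL1A1, -0.49 for KRT8, -0.43 for MUC1 and -0.38 for KRT18. The part of these shifts in the ratios below was not tested. Totals taken without the mitochondrial and ribosomal RNA genes left the direction of each of the 7 genes as it was. Such totals shift every gene alike, so they say little on this point. The results are therefore those of cells labelled MiaPaca2, not of a line whose identity the data bear out.

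The stretches upstream of 4 of the genes are shown, since HRAS and MAPK3 had the lowest and SOS1 the highest ratio among the 7, and NRAS is the RAS gene that differed from HRAS in direction. Each is the 250 bases before a RefSeq start site (GRCh38.p14), the one at the start of the canonical GENCODE transcript, written 5′ to 3′ on the strand of the gene, with capitals marking each GC box, the letters GGGCGG read on either strand. They lie at chr11:535577-535826 (minus strand) for HRAS, chr16:30123221-30123470 (minus) for MAPK3, chr1:114716772-114717021 (minus) for NRAS and chr2:39121052-39121301 (minus) for SOS1.
HRAS: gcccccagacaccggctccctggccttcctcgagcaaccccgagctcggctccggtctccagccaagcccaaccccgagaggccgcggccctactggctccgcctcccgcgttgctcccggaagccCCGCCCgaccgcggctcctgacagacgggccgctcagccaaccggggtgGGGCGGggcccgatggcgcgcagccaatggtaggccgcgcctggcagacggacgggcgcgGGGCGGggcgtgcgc
MAPK3: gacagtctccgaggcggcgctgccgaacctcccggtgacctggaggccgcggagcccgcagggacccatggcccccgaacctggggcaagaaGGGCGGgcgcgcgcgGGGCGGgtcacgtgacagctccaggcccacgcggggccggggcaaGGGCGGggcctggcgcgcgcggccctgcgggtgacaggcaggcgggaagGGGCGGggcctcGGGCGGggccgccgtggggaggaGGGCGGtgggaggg
NRAS: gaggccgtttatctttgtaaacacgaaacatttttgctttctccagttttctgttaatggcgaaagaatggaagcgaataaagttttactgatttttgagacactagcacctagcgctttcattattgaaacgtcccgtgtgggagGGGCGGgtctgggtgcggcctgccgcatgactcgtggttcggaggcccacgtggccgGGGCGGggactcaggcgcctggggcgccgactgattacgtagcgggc
SOS1: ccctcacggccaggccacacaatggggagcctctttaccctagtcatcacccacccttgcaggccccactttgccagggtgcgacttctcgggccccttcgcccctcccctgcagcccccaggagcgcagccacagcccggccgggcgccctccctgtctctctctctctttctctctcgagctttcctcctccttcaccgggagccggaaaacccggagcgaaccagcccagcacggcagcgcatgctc
The GC box, a sequence bound by the Sp1 family of transcription factors, occurred 3 times upstream of HRAS, 6 times upstream of MAPK3 and 3 times upstream of MAP2K1, the 3 genes with less RNA in the iMQT_020 library before any correction for GC content. It occurred 2 times upstream of NRAS and not at all in the windows of SOS1, NF1 and BRAF. Of 35116 RefSeq windows of the same length, 42.6% held at least 1 GC box, so its presence is common. The median number over those windows was 0 and the 90th percentile was 3. The windows of MAPK3, HRAS and MAP2K1 also had the highest GC content of the 7, at 80.4%, 77.2% and 71.2%. The other windows lay between 54.4% (NRAS) and 67.2% (NF1 and SOS1). Whether the number of boxes reflects more than the GC content of the window was not tested. The letters TGACG, part of the cyclic AMP response element, were found on either strand 2 times upstream of NF1, 2 times upstream of MAP2K1 and once upstream of BRAF, against 21.2% of all windows with at least 1. The letters CCAAT, likewise read on both strands, were found once each upstream of HRAS, BRAF and MAP2K1, and 32.0% of all windows held them. Matches could overlap. The 2 matches of TGACG upstream of NF1 overlap within a single stretch, TGACGTCA, read on both strands, while those upstream of MAP2K1 lie apart. A match describes the sequence without showing that a factor binds it. The start site given for BRAF lies 661 bases inside the canonical transcript, while the windows of the other 6 genes end at the canonical start. SOS1 and MAP2K1 each had 2 RefSeq windows, and only the one at the canonical start was read.

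The 7 genes went both ways. SOS1, BRAF, NF1 and NRAS had more RNA in the iMQT_020 library, by 1.48-fold, 1.39-fold, 1.27-fold and 1.18-fold, while HRAS, MAPK3 and MAP2K1 had less, by 1.24-fold, 1.09-fold and 1.05-fold. The 3 lower ratios moved above 0 when each gene was compared with genes of like GC content and length, as described further on. Of all 14805 measured genes, 47.3% were above 0 and 52.7% below. None of the 7 was 2-fold apart, against 5.23% of measured genes (2.15% higher and 3.09% lower), and none was 1.5-fold apart, against 16.5%. Ratios are of CPM (reads per 1000000 reads) scaled between libraries, iMQT_020 over vehicle, on the log2 scale, and the interval given with each is the exact 95% interval of a ratio of 2 counts, which covers counting error only. That interval lay above 0 for 4 genes and below 0 for 3, but it also lay above 0 for 35.0% and below 0 for 39.1% of measured genes, 74.2% in all. Among the 9312 genes with at least 1000 reads in a library, a class that holds all 7, it excluded 0 for 82.1%, and 8.01% were 1.5-fold apart. Counting error is thus small here, and the unknown variation between cultures is not in these intervals. The values are shares of the RNA of a culture, so fewer cells of a kind and less RNA per cell cannot be told apart.

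HRAS and NRAS encode closely related RAS GTPases that differ mainly in their membrane-anchoring tails. HRAS lies on chromosome 11 (532242 to 535576, GRCh38.p14) and had 1851 reads in the iMQT_020 library and 2587 in the vehicle library. Its deposited values were 65.3 TPM and 26.0 FPKM with iMQT_020, against 76.5 TPM and 31.5 FPKM with vehicle. The log2 ratio was -0.31 (-0.39 to -0.22), or 0.13 once centred on GC content and length, and 22.7% of measured genes had a lower uncentred ratio. Before centring, HRAS was the member with the largest deficit in the iMQT_020 library. Its TPM intervals did not overlap, but the share of all genes with that trait was not counted. Among genes with at least 1000 reads in a library, the counting interval of the ratio excluded 0 for 82.1%.

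NRAS, on chromosome 1 (114704469 to 114716771), is the one of the 7 with a single RefSeq transcript in the deposited table. It had 9769 reads with iMQT_020 and 9376 with vehicle, although the iMQT_020 library was the smaller one. Its level was 88.4 TPM and 35.2 FPKM in the iMQT_020 library and 72.7 TPM and 29.9 FPKM in the vehicle library. The log2 ratio was 0.24 (0.19 to 0.28), or 0.06 once centred, and the uncentred value was close to the upper quartile of all measured genes at 0.22. Per molecule, NRAS stood at 1.35 times HRAS with iMQT_020 and at 0.950 times HRAS with vehicle, both from TPM. The log2 ratio of NRAS to HRAS reads, uncentred, differed between the libraries by 0.54 (0.45 to 0.64), a quantity that does not depend on how the libraries are scaled. Intervals of such differences between paired genes are 95% normal-approximation intervals of a log odds ratio and again cover counting error only. Once each gene was centred on GC content and length, the order reversed, with HRAS at 0.13 and NRAS at 0.06.

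SOS1, on chromosome 2 (38981549 to 39124868), encodes the exchange factor that receptors recruit through the adaptor GRB2. It had 7247 reads with iMQT_020 and 5519 with vehicle. Its level was 31.9 TPM and 12.7 FPKM in the iMQT_020 library, against 20.8 TPM and 8.56 FPKM in the vehicle library. The log2 ratio of 0.57 (0.52 to 0.62) was the highest of the 7, and 93.4% of measured genes had a lower one; once centred it was 0.30, below that of BRAF. SOS2, its paralog, had 2402 reads with iMQT_020 and 1838 with vehicle and a log2 ratio of 0.56 (0.47 to 0.65), or 0.46 once centred. SOS1 accordingly made up 65.1% of the summed SOS1 and SOS2 TPM with iMQT_020 and 65.0% with vehicle. The ratio of SOS1 to SOS2 reads differed between the libraries by 0.01 on the log2 scale (-0.09 to 0.11).

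NF1, on chromosome 17 (31094977 to 31377675), encodes neurofibromin, which opposes SOS1 by speeding the hydrolysis of GTP on RAS. It had 10331 reads in the iMQT_020 library and 9158 in the vehicle library, the most of the 7 with iMQT_020. Its level was 32.9 TPM and 13.1 FPKM with iMQT_020 and 25.04 TPM and 10.3 FPKM with vehicle. The log2 ratio was 0.35 (0.31 to 0.39), or 0.14 once centred, so this inhibitor of RAS had more RNA in the same library as the activator SOS1. SOS1 stood at 0.971 times NF1 with iMQT_020 and 0.831 times NF1 with vehicle, from TPM, and the log2 ratio of their reads differed by 0.22 (0.15 to 0.28).

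BRAF, on chromosome 7 (140713328 to 140924929), encodes the RAF kinase with the highest basal activity toward MEK. It had 4066 reads with iMQT_020 and 3309 with vehicle. Its level was 17.3 TPM and 6.89 FPKM in the iMQT_020 library and 11.8 TPM and 4.86 FPKM in the vehicle library, the lowest of the 7 in both. The log2 ratio was 0.47 (0.41 to 0.54), with 90.6% of measured genes lower. ARAF, a paralog, was at 0.16 (0.09 to 0.22); once centred on GC content and length, BRAF was at 0.35 and ARAF at 0.34. BRAF stood at 0.291 times ARAF with iMQT_020 and at 0.229 times ARAF with vehicle, from TPM, and the log2 ratio of their reads, uncentred, differed by 0.32 (0.22 to 0.41). Against the next kinase in the chain, BRAF stood at 0.251 times MAP2K1 with iMQT_020 and at 0.169 times MAP2K1 with vehicle, and the log2 ratio of those reads differed by 0.55 (0.46 to 0.63).

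MAP2K1, on chromosome 15 (66386912 to 66491544), encodes the dual-specificity kinase MEK1. Its reads numbered 4476 with iMQT_020 and 5315 with vehicle, for 68.9 TPM and 27.4 FPKM in the iMQT_020 library and 70.1 TPM and 28.8 FPKM in the vehicle library. The log2 ratio was -0.07 (-0.13 to -0.01), or 0.01 once centred, and the TPM intervals of the 2 libraries overlapped. MAP2K2, which encodes MEK2, was at -0.09 (-0.13 to -0.06), or 0.21 once centred. MAP2K1 held 24.5% of MEK TPM with iMQT_020 and 24.2% with vehicle. The log2 ratio of MAP2K1 to MAP2K2 reads differed by 0.02 (-0.05 to 0.09).

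MAPK3, on chromosome 16 (30114105 to 30123220), encodes the terminal kinase ERK1. It had 3811 reads with iMQT_020 and 4685 with vehicle, for 83.0 TPM and 33.1 FPKM in the iMQT_020 library and 87.3 TPM and 35.9 FPKM in the vehicle library. The log2 ratio was -0.12 (-0.18 to -0.06), or 0.11 once centred, and again the TPM intervals overlapped.

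**Figure D1:**
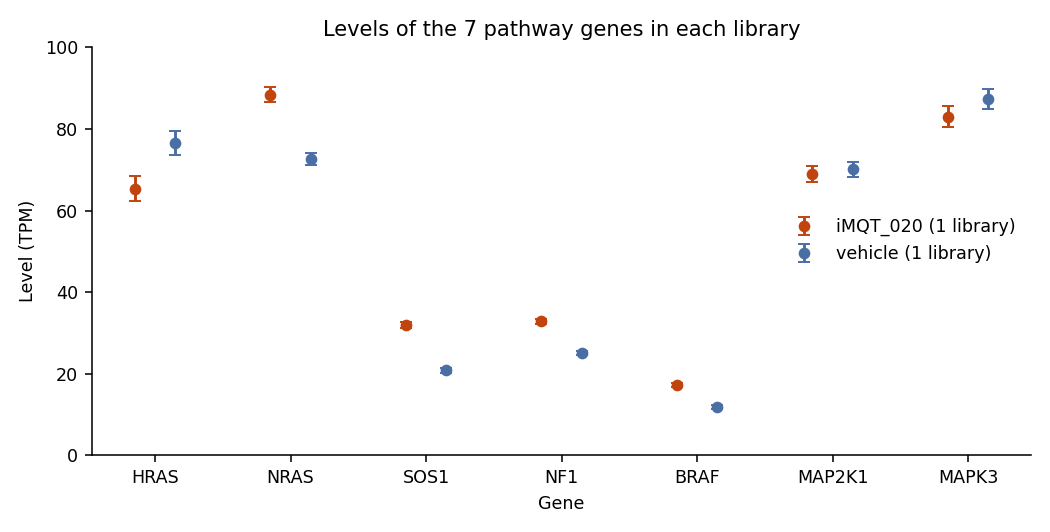
Deposited level (TPM, linear axis) of the 7 genes, 1 point per library, iMQT_020 left of vehicle; bars are 95% Poisson intervals from the read counts and cover counting error only. NRAS, SOS1, NF1 and BRAF sit higher with iMQT_020, HRAS sits lower, and the intervals of MAP2K1 and MAPK3 overlap. The share of all measured genes whose TPM intervals overlap was not counted.

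**Figure D2:**
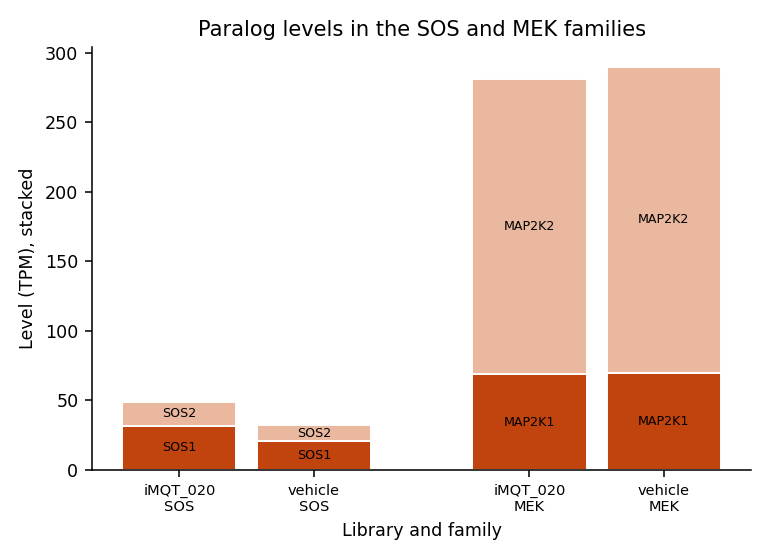
Stacked level (TPM, linear axis from 0) of the paralogs in the SOS and MEK families, with the iMQT_020 library left of the vehicle library in each pair and no replicates. SOS1 holds 65.1% of the SOS sum with iMQT_020 and 65.0% with vehicle, and MAP2K1 holds 24.5% of the MEK sum with iMQT_020 and 24.2% with vehicle.

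The order of the 7 levels, set per transcript length in TPM, differed between the libraries. With iMQT_020 it ran NRAS, MAPK3, MAP2K1, HRAS, NF1, SOS1, BRAF, and the intervals of MAP2K1 and HRAS overlapped, as did those of NF1 and SOS1. In the vehicle library it ran MAPK3, HRAS, NRAS, MAP2K1, NF1, SOS1, BRAF, with overlap of HRAS with NRAS and of NRAS with MAP2K1. NRAS thus held rank 1 with iMQT_020 and rank 3 with vehicle, and HRAS held rank 4 with iMQT_020 and rank 2 with vehicle. Summed over the 7 genes, the level was 388 TPM with iMQT_020 and 364 TPM with vehicle. For each of the 7, the log2 difference in TPM was above the ratio by scaled counts, as for NRAS (0.28 and 0.24) and MAP2K1 (-0.03 and -0.07). The summed TPM carries that offset. Of measured genes, 65.8% had a lower TPM than SOS1 with iMQT_020 and 54.8% with vehicle, and 87.1% had a lower TPM than NRAS with iMQT_020 and 83.7% with vehicle.

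The wider pathway was read from 69 genes in 10 roles, the 7 included, of which 63 passed the count minimum. Of these, 35 had a log2 ratio above 0 and 28 below, with a median of 0.07, against 47.3% above 0 and a median of -0.02 over all measured genes. No pathway gene was 2-fold apart, against 5.23% of measured genes. At 1.5-fold, 2 were higher and 4 lower, against 6.3% and 10.2% of measured genes. The 2 higher genes were adaptors: FRS2, which links fibroblast growth factor receptors to GRB2, at 0.62 (0.54 to 0.69), and GAB2, a docking protein, at 0.59 (0.39 to 0.80). The 4 lower genes were RASGRP2, an exchange factor that mainly serves the related GTPase RAP1, with 143 reads with iMQT_020 and 323 with vehicle, RASAL1 at -0.78 (-1.12 to -0.44) and RASA3 at -0.76 (-0.93 to -0.60), both GTPase-activating proteins, and RRAS, a RAS relative, at -0.60 (-0.83 to -0.38). RASGRP2 lay at the edge of the 2-fold rule (-0.997, -1.29 to -0.71) and passed it with median-of-ratios scaling. Once centred on GC content and length, FRS2 at 0.43, GAB2 at 0.55 and RRAS at -0.17 were no longer 1.5-fold apart, while RASGRP2, RASA3 and RASAL1, at -0.82, -0.72 and -0.64, still were.

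By role, 7 of 8 genes listed as receptor adaptors lay above 0, with a median of 0.28. The list is mixed and also holds PTPN11 and CBL, the latter at 0.55 (0.50 to 0.60). PTPN11, the phosphatase SHP2 that acts upstream of RAS, was at 0.24 (0.21 to 0.26) with 26887 reads with iMQT_020 and 25780 with vehicle, and GRB2, the partner of SOS1, was at 0.11 (0.05 to 0.16). GTPase-activating proteins were divided, 5 above and 4 below 0, with NF1 among those above. The other RAS relatives RRAS2 and MRAS were at 0.16 and 0.05. Enzymes and carriers of RAS lipid modification and transport, 10 measured, were split 5 and 5 and stayed between -0.23 and 0.28. Scaffolds and regulators of RAF, 15 measured, lay between -0.36 and 0.30, with 8 above 0, and kinases activated by ERK, 7 measured, between -0.28 and 0.23, with 3 above 0. Centring moved several of these counts: 4 of the 15 scaffolds and regulators of RAF, 7 of the 10 genes of lipid modification and transport and 4 of the 7 kinases activated by ERK were then above 0. The adaptors, 7 of 8, and the GTPase-activating proteins, 5 of 9, had the same number above 0 on both scales, and the whole list had 38 of 63 above 0 once centred. Of the 13853 measured genes that could be centred, 6902 were above 0.

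**Figure D3:**
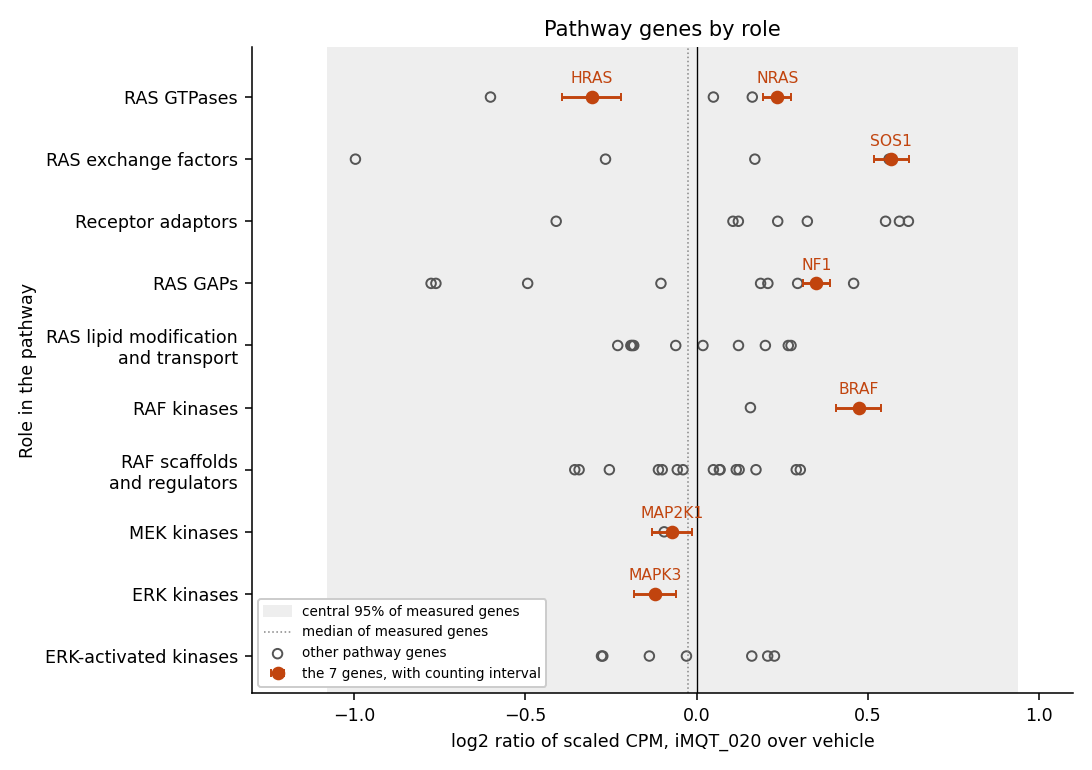
Log2 ratio of scaled CPM, iMQT_020 over vehicle, of each measured pathway gene by role; filled points are the 7 genes with their 95% counting intervals, open points are other pathway genes (MRAS stands in 2 roles), and the grey band is the central 95% of all 14805 measured genes. All pathway genes lie inside the band, RASGRP2 nearest to its lower edge; HRAS, MAPK3 and MAP2K1 are left of 0 here and right of it once centred on GC content and length.

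With 2 libraries, the pattern of a gene is a single ratio, so likeness between genes says little. By distance in log2 ratio, the pathway gene nearest to SOS1 was SOS2, to NRAS PTPN11, to NF1 the docking protein GAB1 and to BRAF the GTPase-activating protein DAB2IP. HRAS was nearest to RPS6KA1, a kinase activated by ERK, MAP2K1 to ICMT, which methylates RAS, and MAPK3 to the scaffold KSR2. Distances ran over 2 libraries from 0.0014 for NRAS and PTPN11 to 0.029 for HRAS and RPS6KA1. KSR2 was below 0 by counts, at -0.11, but above 0 by the difference in log2 TPM, at 0.53.

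Of 10 transcripts commonly used as a readout of ERK output, 6 passed the count minimum, 2 above and 4 below 0, with a median of -0.20 and none 2-fold apart. Over all measured genes, 47.3% lay above 0 and 52.7% below, and 5.23% were 2-fold apart. Once centred, 1 of the 6 was above 0, against 6902 of the 13853 measured genes that could be centred. CCND1, which encodes cyclin D1, had 7655 reads with iMQT_020 and 10825 with vehicle and was at -0.32 (-0.37 to -0.28). EPHA2, a receptor kinase, had 484 reads with iMQT_020 and 942 with vehicle and was at -0.78 (-0.95 to -0.62). The intervals of PHLDA1, SPRY2, DUSP4 and EPHA4 held 0, while the interval excluded 0 for 74.2% of measured genes. The other 4 genes were below the minimum, so these counts and the median leave them out. Each of them had more reads with iMQT_020. DUSP6, a phosphatase of ERK, had 37 reads with iMQT_020 and 25 with vehicle, and ETV5, a transcription factor, had 31 and 7 in the same order. SPRY4 and ETV4 had 8 and 4 reads with iMQT_020 and 0 with vehicle.

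The 3 genes below 0 had the highest transcript GC content of the 7. The canonical transcripts in GENCODE 44 had a GC content of 64.3% for HRAS, 61.0% for MAPK3 and 51.2% for MAP2K1. Those of BRAF, NF1, SOS1 and NRAS, above 0, lay between 37.4% and 41.6%. The same 3 genes also had the shortest of the 7 transcripts, 1070 bases for HRAS, 1787 for MAPK3 and 2547 for MAP2K1, while that of NF1 was longest at 12373 bases. Over measured genes at large, the median log2 ratio was 0.13 in the tenth with the lowest GC content and -0.31 in the tenth with the highest. It was -0.20 in the tenth with the shortest transcripts and 0.18 in the tenth with the longest.

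When the ratio was centred on its median among genes of like GC content and length, all 7 genes lay above 0. So did 6902 of the 13853 measured genes that could be centred, since each bin is centred on its own median. The centred log2 ratio was 0.35 for BRAF, 0.30 for SOS1, 0.14 for NF1, 0.13 for HRAS, 0.11 for MAPK3, 0.06 for NRAS and 0.01 for MAP2K1. Those 7 genes were compared with bins of 137 to 228 genes each, whose medians ran from -0.44 for the bin of HRAS to 0.27 for the bin of SOS1. BRAF and SOS1 were the 2 genes farthest above genes of like composition. HRAS and NRAS, far apart before centring, were within 0.07 of each other after it, with HRAS then the higher. Whether composition has a part in the uncentred ratios was not tested beyond this, and with 1 library per condition it cannot be told apart from the treatment.

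**Figure D4:**
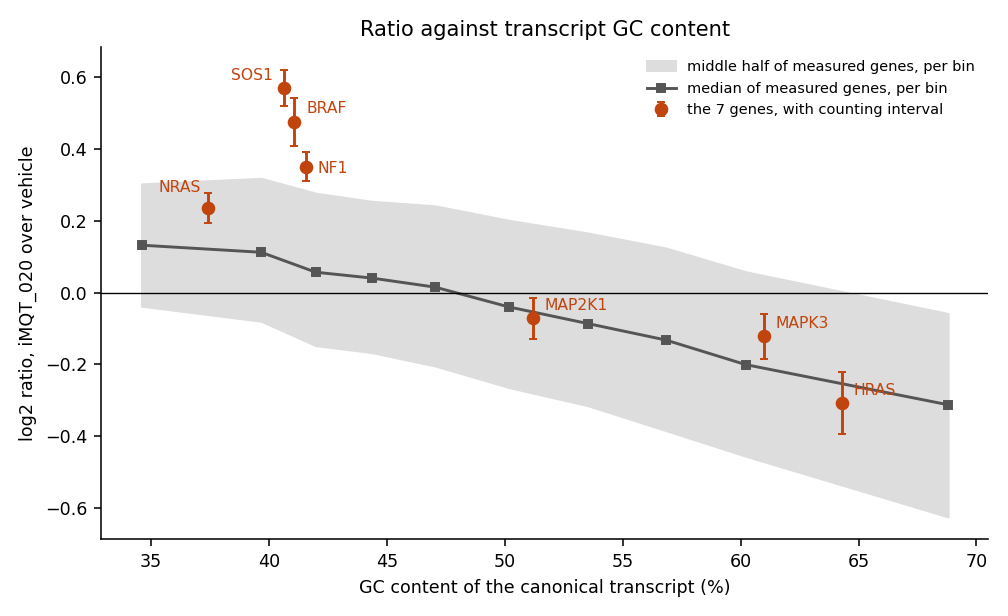
Log2 ratio, iMQT_020 over vehicle, against GC content of the canonical transcript (%); the grey line and band are the median and the middle 50% of measured genes in 10 bins of GC content, drawn at the middle of each bin, and points are the 7 genes with 95% counting intervals. The 4 genes at 37.4% to 41.6% GC lie above 0 and the 3 at 51.2% to 64.3% lie below it, as the bin medians do, and BRAF, SOS1 and NF1 lie above the band.

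**Figure D5:**
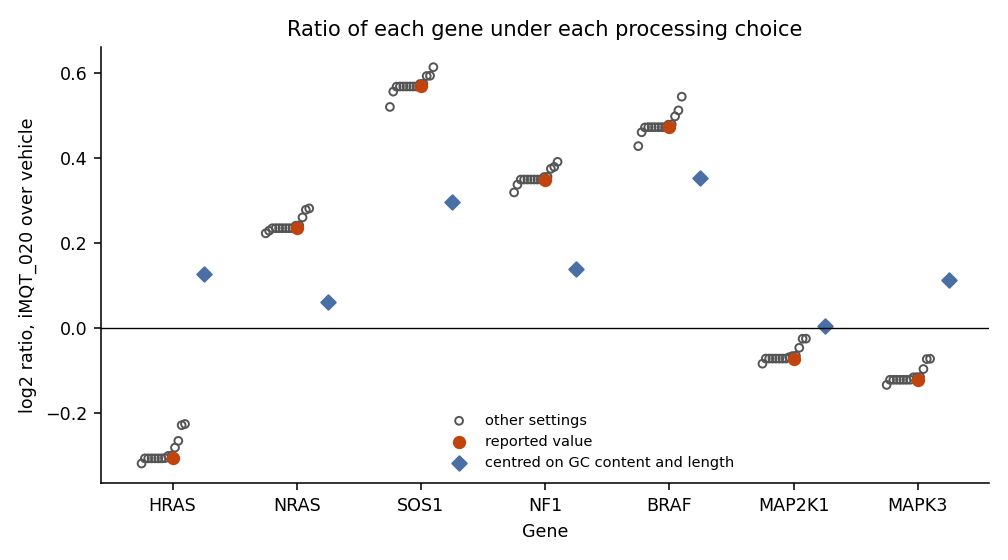
Log2 ratio, iMQT_020 over vehicle, of the 7 genes under the reported processing (filled circles), under 14 other settings, 6 of which leave each ratio identical (open circles, spread sideways for legibility) and centred on GC content and length (diamonds). Open circles stay on the side of 0 of the reported value for every gene, while the diamonds of HRAS, MAP2K1 and MAPK3 lie above 0.

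The direction of each of the 7 genes was the same in counts, TPM and FPKM, which come from the same libraries. From the ratio of reads to FPKM, which moves when the mix of short and long transcripts of a gene differs, the difference between libraries lay between -0.03 (HRAS and BRAF) and 0.00 (NF1) on the log2 scale after subtraction of the median gene, against -0.15 to 0.16 for the central 95% of measured genes. No shift in transcript length was therefore seen at this resolution, although the table lists 16 RefSeq transcripts for BRAF and 4 each for HRAS, SOS1 and MAPK3. Transcripts were summed per gene, so a switch between transcripts of like length would not show.

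The 11 pseudogenes of BRAF, MAP2K1 and NF1 that were looked up had 0 reads in both libraries. HRAS lies wholly within the span of LRRC56, which had 76 reads with iMQT_020 and 75 with vehicle. EVI2A, EVI2B and OMG, which lie inside NF1, had 0 reads. AK4P1, a pseudogene also inside NF1, had 159 reads with iMQT_020 and 200 with vehicle. SNAPC5 overlaps MAP2K1 by 1797 bases and had 1360 reads with iMQT_020 and 1572 with vehicle, a log2 ratio of -0.03 (-0.14 to 0.07). Whether counting used the strand is not stated in the labels, so reads in such overlaps cannot be assigned with certainty. Genes beside the members included MRPS33, near BRAF, at 0.06 (-0.01 to 0.13), and YPEL3, GDPD3 and CORO1A, near MAPK3, at 0.42, -0.05 and 0.32.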

How the data were processed

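RNA sequencing gave 1 library from cells with iMQT_020 and 1 from cells with vehicle. HISAT2 with Bowtie2 placed the reads on GRCh38, per the labels' protocols. The submitters' processing notes list StringTie and edgeR as tools, with no version or role. The authors deposited whole-number estimated counts for each gene, beside FPKM and TPM values that they had scaled. A shorter deposited table repeats the FPKM. Columns were assigned by name, with 0 left unassigned.

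Totals of 59139157 (iMQT_020) and 67095283 (vehicle) were scaled by TMM in edgeR 4.0.16 (R 4.3.3). A prior count of 0.5 and a minimum of 50 counts in at least 1 library were used. No test was possible with 1 library per condition. Clopper-Pearson intervals of ratios and Poisson intervals of TPM cover counting error only and treat estimated counts as reads; a count of 0 was read against 3 counts. GC content and length came from canonical GENCODE 44 transcripts (93.6% of measured genes), in 10 bins each, and positions from RefSeq. The calculation was tested on simulated data. Members, lists and alternatives were chosen with earlier results of these data known. The genes named are the members, the RAS, RAF, MEK and ERK genes, the 3 highest and 3 lowest pathway genes, the ERK output genes, neighbours and pseudogenes, and each member's nearest pathway gene; others were chosen after their values were seen. Some genes that this rule names are not reported here and are left out of the list counts. Alternatives used DESeq2 1.42.0 size factors; other steps used Python 3.11.15, pandas 2.3.3 and scipy 1.17.1.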

Additional observations from a re-analysis of the deposited data

How the results depend on the processing

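Of the 15 alternatives, 9 could move a member's ratio; the other 6 (count minimums, protein-coding genes, the 1.5-fold rule and the pseudogene sum, with 0 reads added) leave it identical. Of the 9, 8 left SOS1, BRAF, NF1 and NRAS above 0 and HRAS, MAPK3 and MAP2K1 below. The changes of scaling shift every gene alike and by little, with HRAS between -0.319 and -0.281. The TPM and FPKM come from the same libraries, so this agreement is no independent check of the directions. Uncentred ratios ran from 0.52 to 0.61 for SOS1, 0.43 to 0.55 for BRAF, 0.32 to 0.39 for NF1, 0.22 to 0.28 for NRAS, -0.32 to -0.23 for HRAS, -0.13 to -0.07 for MAPK3 and -0.08 to -0.02 for MAP2K1. Centring on GC content and length put 7 members above 0 and 0 below, with HRAS at 0.129, MAPK3 at 0.114 and MAP2K1 at 0.00599. Of the 13853 measured genes that could be centred, 6902 were then above 0. The bins subtract the median of like genes, and the cause of the trend with GC content and length was not tested. Pathway genes 2-fold apart numbered 0 as reported, 1 with median-of-ratios scaling and 2 with deposited TPM plus 0.1 (RASGRP2 and RASAL1), and 6 were 1.5-fold apart. Over all genes, 318 were 2-fold higher and 457 lower; a minimum of 10 counts gave 1236 and 1008, of 200 counts 89 and 244, and no minimum 3503 and 2756. Deposited TPM plus 1 gave 140 and 223, deposited FPKM plus 1 gave 48 and 118, centring gave 238 and 301, protein-coding genes gave 201 and 330, and a 1.5-fold rule gave 933 and 1514. No paired analysis was possible because each condition has 1 library. No replicate could be left out for the same reason. Each member had 1851 reads or more in each library, so counting error is small; the spread between cultures was not measured, and 3 directions depend on the centring.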
